A study of Mus musculus with 4 samples.

Results

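Imprinted genes are transcribed mainly from 1 parental copy, and 46 of them, chosen by name and grouped by locus, were read out in total RNA from wt and Top2β-null mouse embryonic fibroblasts (MEF cells). All 46 were matched by symbol among the 54842 gene identifiers of the count table, and they fall into 20 loci, of which 10 are represented by a single member. There were 2 libraries of wild-type, untreated MEF cells and 2 libraries of untreated MEF cells with the genotype Top2beta null, all grown in the same medium and depleted of ribosomal RNA before sequencing. Per the study's methods, the Top2β-null MEF cells were a gift from other laboratories, so that loss of Top2β and the origin of the cells cannot be told apart in these libraries. The age of the embryos, the strain and the number of founder cells of either line are not given in the sources used here. The labels do not say that the replicates were separate cultures, and p-values then measure only the spread between these libraries, which may be technical. The counts summed to between 133116830 and 149647278 per library, and normalized counts below are these counts scaled by TMM factors to a common library size. Top2b itself, the targeted gene, had 18259 and 18465 normalized counts in wt and 3879 and 3789 in Top2β-null MEF cells, which left 20.9% of the wt level (log2 fold change -2.26, SE 0.0271, edgeR adjusted p = 6.6e-19). Its paralog Top2a was at 78726 and 80246 normalized counts in wt and 83408 and 83495 in Top2β-null MEF cells. All 8 fibroblast markers examined were above 100 normalized counts in both genotypes, with summed levels of 1300290 and 1324930 in wt and 878656 and 883434 in Top2β-null MEF cells. Of these markers, Thy1, Pdgfrb and Pdgfra were called higher by the rule given further on (log2 fold changes 2.07, 1.88 and 1.16), and Col1a1 and Col3a1 lower (-1.38 and -1.01). Endothelial markers summed to 121 and 127 normalized counts in wt and to 242 and 254 in Top2β-null MEF cells, and among them Kdr went from 71.7 and 68.6 to 203 and 205 (log2 fold change 1.54, edgeR adjusted p = 2.1e-07). The other endothelial markers, Pecam1 and Cdh5, did not pass the test (log2 fold changes -0.50 and -0.16, edgeR adjusted p = 0.28 and 0.68). Krt8, an epithelial keratin gene, went from 45.4 and 45.4 to 6.21 and 3.96 (log2 fold change -3.13, edgeR adjusted p = 5.3e-06). Leukocyte, epithelial and trophoblast markers reached at most 70.5 normalized counts when summed over each list in a library.

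At an imprinted locus, DNA methylation laid down in the egg or the sperm marks an imprinting control region, and the mark is kept in body cells through every division. Proteins that read the mark, a zinc finger protein that binds methylated control regions among them, and long noncoding RNAs that silence their neighbours on the same chromosome then restrict a whole cluster of genes to the maternal or the paternal copy. Many members set growth of the embryo and placenta, with growth promoters often expressed from the father's copy and growth restrainers from the mother's, and many are turned down after birth. The parental copy given below for each gene is background knowledge, because the counts carry no information on alleles.

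Among the 46 genes, several silent or nearly silent in wt MEF cells were abundant in Top2β-null MEF cells. Of the 39 that could be tested, 12 were called higher and 2 lower. Of the 39, 11 passed the filter on low counts (10 counts in 2 libraries) through the Top2β-null libraries alone, 10 of them among those called higher, and 2 through the wt libraries alone, so their direction was set by the filter. The 11 were Grb10, Peg3, Usp29, Zim1, H19, Meg3, Mirg, Rtl1, Ndn, Peg12 and Mkrn3. A gene was called where edgeR's adjusted p was below 0.05, the absolute log2 fold change above 1 and the mean normalized count above 100. Over all 25085 genes tested, 5.52% were called higher and 5.25% lower by the same rule. By the adjusted p alone, 22 members were higher and 11 lower, against 32.8% and 33.7% of all genes tested. The libraries of the genotypes did not overlap for 36 of the 39 members, and this was so for 81.9% of all genes tested. The median log2 fold change of the 39 members was 0.21 and that of their absolute values 0.56, where all genes tested had medians of -0.0058 and 0.42. Restricting the view to genes with a mean above 100 normalized counts, 14 of 33 members (42.4%) were called, and 16.2% of all genes above that mean. The 12 genes called higher lay in 6 loci, with 4 in Dlk1-Dio3, 3 in Snrpn-Ube3a, 2 in the Peg3 locus and 1 each at Grb10, H19-Igf2 and Peg10-Sgce. No member of the Kcnq1ot1, Mest, Plagl1, Nnat-Blcap or Zrsr1-Commd1 loci was called.

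**Figure D1:**
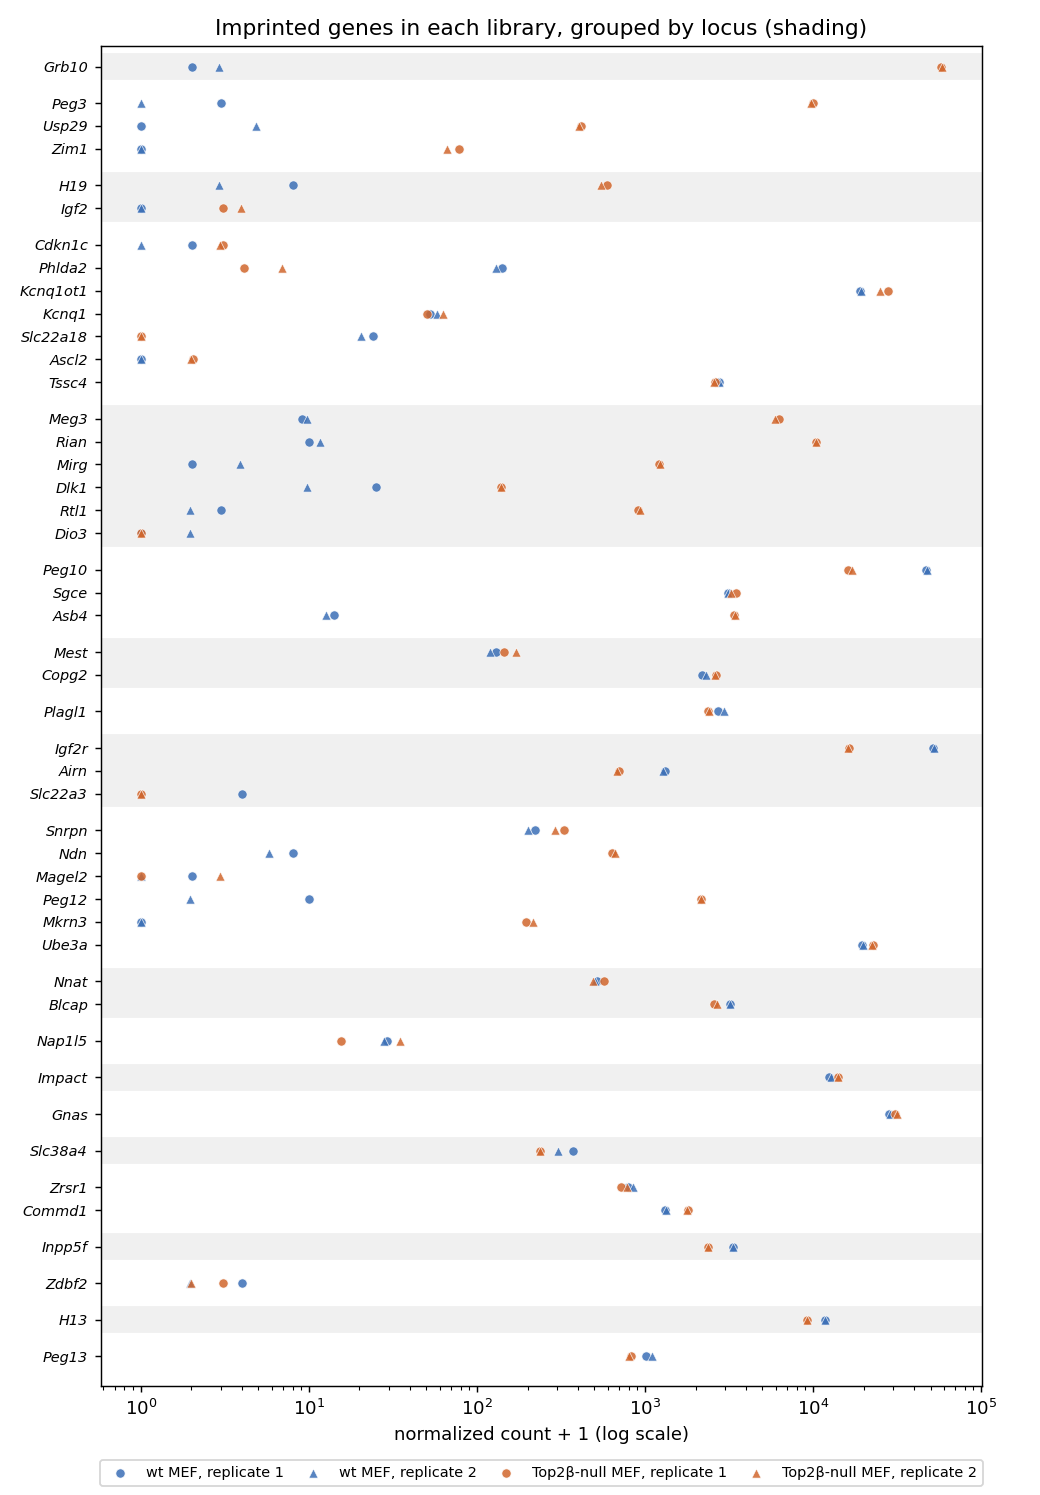
Normalized count plus 1, on a log axis, of each of the 46 genes in each library, with shaded and unshaded bands separating the loci. Circles and triangles are the 2 libraries of a genotype, and Grb10, Peg3, Meg3, Rian, Asb4 and Peg12 sit at or below 13.1 normalized counts in wt (blue) and at or above 2153 in Top2β-null MEF cells (orange).

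Grb10 encodes an adaptor protein that dampens signalling from the insulin and IGF1 receptors. It showed the greatest difference among the 39 tested members in the fit of all libraries. Grb10 passed the filter on low counts through the Top2β-null libraries alone, so its direction was set by the filter. It lies on GRCm38 at chr11:11930508-12038683 on the minus strand, and is expressed from the maternal copy in most tissues and the paternal one in neurons. The wt libraries held 1 and 2 of its reads and the Top2β-null libraries 55911 and 59044. Where a genotype had at most 30 reads in all, the difference is given as the ratio of its scaled reads between genotypes. For Grb10 this ratio was 39305 (95% counting interval 13449 to 190596, exact Clopper-Pearson), with an edgeR adjusted p of 9.5e-23. This interval overlaps that of Peg3 (2748 to 81974). Without wt replicate 1 the ratio was 30127 for Grb10 and at least 3382 for Peg3, so their order rests on single wt reads. Counting intervals of this kind cover counting error only. Per kilobase of exon, Grb10 stood at 6402 normalized counts in Top2β-null MEF cells, at percentile 97.7 of all genes with a count, where in wt it stood at percentile 1.83. The promoter window of its upstream start is shown because it is the most CpG-rich of the windows of called members, with 45 CpGs against a median of 7 over all windows. Windows are RefSeq sequences of GRCm38.p6 from 250 bases before to 50 after a start, 5′ to 3′ on the gene's strand. Capitals mark the letters TGCCGC or, on the other strand, GCGGCA, the core that the imprint-keeping protein ZFP57 is known to read when it is methylated.
Grb10, chr11:12037371-12037670, minus strand: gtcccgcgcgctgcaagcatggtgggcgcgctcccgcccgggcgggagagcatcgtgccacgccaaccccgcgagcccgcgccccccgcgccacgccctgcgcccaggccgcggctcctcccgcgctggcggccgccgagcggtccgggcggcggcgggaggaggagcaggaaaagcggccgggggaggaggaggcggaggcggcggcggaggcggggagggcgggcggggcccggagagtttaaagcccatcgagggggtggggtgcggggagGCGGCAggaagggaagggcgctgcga

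These 6 letters, searched on both strands, are in 11.6% of all 32851 promoter windows and in 23.2% of the 56 windows of the members (38 members matched a window). Windows of the same member can overlap. The letters contain a CpG, and matched members had a median of 17 CpGs in their richest window, against 7 over all windows. The part of CpG content in these shares was not tested. Among called genes, 2 of the 10 higher members with a window hold the letters (Grb10 and Meg3), and among tested members that were not called 8 of 21 do. A match is a description of the sequence alone.

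At the Peg3 locus on chromosome 7, all 3 members were higher in Top2β-null MEF cells by the adjusted p. Over all genes tested, 32.8% were higher by it. All 3 passed the filter on low counts through the Top2β-null libraries alone, so their direction was set by the filter. Peg3 (chr7:6703892-6730431, minus strand) encodes a large zinc finger protein and is expressed from the paternal copy. It had 2 and 0 reads in wt and 9595 and 9760 in Top2β-null MEF cells, a ratio of 9927 (95% counting interval 2748 to 81974, edgeR adjusted p = 1.2e-20), which was 4854 without wt replicate 2 and at least 3382 without wt replicate 1. Usp29, a ubiquitin protease gene also expressed paternally, starts head to head with Peg3 (chr7:6730578-6967219, plus strand). Its reads were 0 and 4 in wt and 401 and 407 in Top2β-null MEF cells (ratio 207, 95% counting interval 80.6 to 762, edgeR adjusted p = 1.5e-12), and the ratio was 106 without wt replicate 1 and at least 135 without wt replicate 2. Zim1, a zinc finger gene next to Peg3 that is expressed from the maternal copy, had no read in either wt library and 75 and 66 in Top2β-null MEF cells. That is at least 48.2-fold higher, taking 3 counts over the wt libraries as the limit a count of 0 allows (edgeR adjusted p = 3.7e-08), but its mean stayed below 100 normalized counts and it was not called. Against 1 wt library alone the bound of Zim1 was 24.6 or 23.6. Per kilobase of exon, Peg3 reached 736 normalized counts, Usp29 22.6 and Zim1 8.85 in Top2β-null MEF cells. The window shared head to head by Peg3 and Usp29 is given on the Peg3 strand, since the starts of both genes lie in it. It holds 13 CpGs and no TGCCGC or GCGGCA.
Peg3, chr7:6730370-6730669, minus strand: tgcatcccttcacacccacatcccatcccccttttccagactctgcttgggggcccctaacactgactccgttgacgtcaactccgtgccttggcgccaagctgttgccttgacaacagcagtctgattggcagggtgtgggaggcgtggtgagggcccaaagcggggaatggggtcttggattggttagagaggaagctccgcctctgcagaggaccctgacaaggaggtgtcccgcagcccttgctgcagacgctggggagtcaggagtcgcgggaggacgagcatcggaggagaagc

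Exons of Usp29 share 2582 bases, or 14.3% of its exon bases, with the antisense gene Zim3, which had 0 and 0 reads in wt and 1 and 5 in Top2β-null MEF cells. The setting of the counting program for strand is not given in the sources used here, so reads from such overlaps cannot be told apart.

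The Dlk1-Dio3 locus on chromosome 12 carries protein-coding genes expressed from the paternal copy and, from the maternal copy, a long run of noncoding RNAs that hosts small nucleolar RNAs (snoRNAs) and one of the great miRNA clusters of placental mammals. All 5 tested members were higher in Top2β-null MEF cells by the adjusted p, and 4 were called. Over all genes tested, 32.8% were higher by the adjusted p and 5.52% were called higher. Meg3, Mirg and Rtl1 passed the filter on low counts through the Top2β-null libraries alone, so their direction was set by the filter. Meg3 (chr12:109541001-109571726, plus strand), the noncoding RNA at the head of the maternal run, had 8 and 9 reads in wt and 6072 and 6024 in Top2β-null MEF cells. Rian (chr12:109603940-109661716), the host of the snoRNAs, had 9 and 11 against 10051 and 10556. Mirg (chr12:109729764-109749460), a host of miRNAs at the far end, had 1 and 3 against 1167 and 1242. The ratios were 730 for Meg3 (95% counting interval 456 to 1253), 1057 for Rian (684 to 1731) and 618 for Mirg (241 to 2269), with edgeR adjusted p values of 7.5e-20, 3.0e-21 and 1.3e-16. Without wt replicate 2 the ratio of Mirg was 1208. Rtl1, a gene derived from a retrotransposon that is needed in the placenta and expressed from the paternal copy (chr12:109589193-109600330, minus strand), had 2 and 1 reads in wt and 872 and 936 in Top2β-null MEF cells (ratio 618, 95% counting interval 211 to 3000, edgeR adjusted p = 5.6e-16), and its ratio was 948 without wt replicate 1. Dlk1, a paternally expressed membrane protein related to Notch ligands that restrains fat cell formation, had a smaller difference. There were 24.2 and 8.69 normalized counts in wt and 139 and 139 in Top2β-null MEF cells, a log2 fold change of 3.08 (SE 0.292, edgeR adjusted p = 1.1e-07) at a mean below 100. The fold of Dlk1, 8.45, was 15.8 (log2 3.98) without wt replicate 1 and 5.70 (log2 2.51) without wt replicate 2. Dio3, which inactivates thyroid hormone, had 1 read in 1 wt library and none in the others, and was not tested. Genes known as maternal and as paternal thus both had higher levels within this locus, which is a description alone. The window of Meg3 is printed since it stands at the head of the run, and it holds the letters GCGGCA once and 13 CpGs.
Meg3, chr12:109540746-109541045, plus strand: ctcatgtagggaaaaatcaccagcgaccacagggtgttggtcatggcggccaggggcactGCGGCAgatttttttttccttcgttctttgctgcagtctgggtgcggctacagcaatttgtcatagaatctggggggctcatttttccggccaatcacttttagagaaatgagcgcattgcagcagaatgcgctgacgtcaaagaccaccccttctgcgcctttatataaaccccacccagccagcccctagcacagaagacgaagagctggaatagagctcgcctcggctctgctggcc

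Between the ends of Meg3 and Mirg (chr12:109541001-109749460), the table lists 66 miRNA genes. Neither wt library had a read over any of them, whereas the Top2β-null libraries had 845 and 912 reads in all, spread over 66 and 65 of the genes. The 23 snoRNA genes of the same stretch summed to 0 and 1 in wt and to 857 and 900 in Top2β-null MEF cells, in which all 23 had a count. A library of total RNA is not made to capture mature miRNAs, and these are counts over the coordinates of the precursor genes. For 60 of the 66 genes RefSeq (GRCm38.p6) gives 112 mature sequences with 102 distinct seeds, and no seed is held by more than 2. Of the mature miRNAs, 11 from 6 genes are complementary to exons of Rtl1, from whose opposite strand they come. The 11 have 11 distinct seeds. Some miRNAs of this group are known to cleave Rtl1 RNA in trans, and 6 of the 11 are shown with the seed (bases 2 to 8) in capitals, beside a pair from the exons of Mirg and a pair that shares a seed.
miR-127-3p: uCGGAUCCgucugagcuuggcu
miR-433-3p: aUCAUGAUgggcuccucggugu
miR-431-5p: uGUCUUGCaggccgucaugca
miR-434-3p: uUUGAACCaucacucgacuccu
miR-432: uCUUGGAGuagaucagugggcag
miR-136-5p: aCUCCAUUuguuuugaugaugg
miR-134-5p: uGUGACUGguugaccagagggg
miR-410-3p: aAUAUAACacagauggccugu
miR-379-5p: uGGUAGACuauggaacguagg
miR-1193-5p: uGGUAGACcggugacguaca

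Among the 6 miRNA genes opposite Rtl1, Mir433 had the most reads, with 26 and 39 in the Top2β-null libraries. Mir127 had 8 and 8, Mir432 7 and 5, Mir434 3 and 5, Mir431 1 and 3, and Mir136 1 and 1. All 6 had no read in wt. Mir134 and Mir410, from exons of Mirg, had 14 and 14 and 5 and 12 reads in Top2β-null MEF cells and none in wt. The 6 genes opposite Rtl1 each share 62 to 124 bases with its exons, and without a stated strand setting their reads cannot be told apart from those of Rtl1. Mature miRNAs were not measured.

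**Figure D2:**
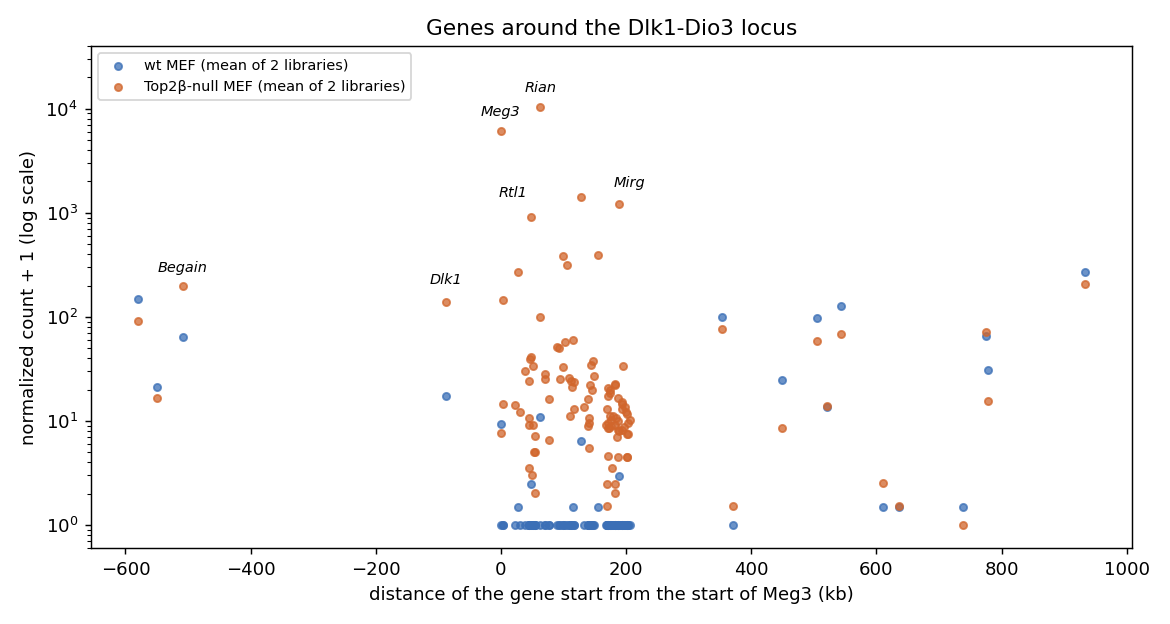
Mean normalized count plus 1, on a log axis, of the genes around the Dlk1-Dio3 locus against the distance in kb of each gene's lowest coordinate from that of Meg3. Along the run from Meg3 to Mirg, wt means (blue) reach at most 9.85 and Top2β-null means (orange) 10432 normalized counts, both at Rian, and at the right of the run the colours lie close together or in the opposite order.

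Between Dlk1 and Dio3, a further 52 tested genes are on neither the list of members nor the further lists, 22 of them miRNA genes and 19 snoRNA genes. In 47 of the 52, neither wt library reached the 10 counts of the filter on low counts, so they entered the fit through the Top2β-null libraries alone and their direction was set by the filter. Of the 52, 5 were called, all of them higher and all among these 47, beside 5.52% of all genes tested. They were the snoRNA gene Gm24895 and the noncoding genes Gm26906, Gm26945, B830012L14Rik and Gm37899. Gm37899 was the most abundant, with 4 and 7 reads in wt and 1321 and 1462 in Top2β-null MEF cells. The exons of Gm26906, 1228 bases in all, lie antisense within exons of Meg3, so its reads cannot be told apart from those of Meg3. Beyond Mirg, toward Dio3, 3 of 5 tested genes were lower by the adjusted p, as were 33.7% of all genes tested: Gm34667, Gm34719 and Gm47188 had log2 fold changes of -1.63, -0.75 and -0.93 (edgeR adjusted p = 0.0058, 0.0047 and 3.3e-04). Gm3379 and Gm47187, also in that stretch, did not pass the test (edgeR adjusted p = 0.0857 and 0.956).

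Snrpn-Ube3a, on chromosome 7, is the locus whose loss in humans underlies the Prader-Willi and Angelman syndromes. Its members are given by position. Ndn, Peg12 and Mkrn3, which lie together between chr7:62346569-62350262 (Ndn) and chr7:62461871-62464510 (Peg12), were all called higher, and all are expressed from the paternal copy. Each of them passed the filter on low counts through the Top2β-null libraries alone, so their direction was set by the filter. Ndn, which encodes the growth-restraining MAGE family protein necdin, had 7 and 5 reads in wt and 610 and 664 in Top2β-null MEF cells (ratio 109, 95% counting interval 62.1 to 211). Peg12, a gene of the Frat family of regulators of Wnt signalling, had 9 and 1 against 2085 and 2174 (ratio 437, interval 237 to 912). The ratio of Peg12 was 2232 without wt replicate 1 and 237 without wt replicate 2. Mkrn3, a ubiquitin ligase gene linked to the timing of puberty, had no read in wt and 189 and 217 in Top2β-null MEF cells, at least 139-fold higher (at least 70.9- or 67.9-fold against 1 wt library alone). Mkrn3 lost its call without either Top2β-null library, where its mean fell below 100 normalized counts. The edgeR adjusted p values were 9.2e-15, 1.3e-16 and 6.8e-11. Magel2, which lies between Ndn and Mkrn3 and is likewise expressed from the father's copy, had 1 and 0 reads in wt and 0 and 2 in Top2β-null MEF cells, so it could not be tested. At this depth Magel2 was not detectable above single reads in either genotype.

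The other end of the locus changed little. Snrpn (chr7:59982495-60140219, minus strand), a paternally expressed gene of RNA splicing, had 222 and 201 normalized counts in wt and 330.4 and 291 in Top2β-null MEF cells. Its log2 fold change of 0.56 (SE 0.111) passed the adjusted p of edgeR (3.8e-04) but not the limit of 1 on the log2 fold change. Ube3a, the ubiquitin ligase of Angelman syndrome that is maternal in neurons, had 19468 and 19691 in wt against 22789 and 22361 normalized counts (log2 fold change 0.21, SE 0.0246, edgeR adjusted p = 1.9e-06). Exons of Ube3a share 2025 bases with Gm44560, 1803 with Snhg14 and 1796 with 9330162G02Rik, all antisense, and Snrpn shares 589 with Gm38393 (27.3% of its exon bases) and 216 with Snurf on its own strand, so that their reads cannot be told apart. Snhg14 differed by 0.16 on the log2 scale (edgeR adjusted p = 0.0016) and Snurf by 0.51 (adjusted p = 0.0671).

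H19, the maternally expressed noncoding RNA of the H19-Igf2 locus and the host of miR-675, was called higher. H19 passed the filter on low counts through the Top2β-null libraries alone, so its direction was set by the filter. At chr7:142575529-142578143, it had 7 and 2 reads in wt and 575 and 553 in Top2β-null MEF cells, a ratio of 129 (95% counting interval 67.5 to 282, edgeR adjusted p = 9.5e-14). This ratio was 296 without wt replicate 1 and 80.8 without wt replicate 2. Igf2, its paternally expressed partner and the fetal growth factor of the insulin family, had no read in wt and 2 and 3 reads in Top2β-null MEF cells and was filtered out. Exons of Igf2 share 3596 bases, or 62.8%, with Gm49394 on the same strand, which also had no read in wt and 2 and 3 in Top2β-null MEF cells, so reads of the shared exons cannot be told apart. Mir675, inside H19, had no read in wt and 23 and 26 in Top2β-null MEF cells, over a part of the H19 exons that both genes share. Its mature forms are shown as the products of the H19 transcript, again with seeds in capitals.
miR-675-5p: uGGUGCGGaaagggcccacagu
miR-675-3p: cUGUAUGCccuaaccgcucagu

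The Kcnq1ot1 locus, further along chromosome 7, held the members that were expressed in wt and silent or nearly so in Top2β-null MEF cells. Phlda2, a maternally expressed gene that limits placental growth (chr7:143501545-143503150), had 139 and 133 reads in wt and 3 and 6 in Top2β-null MEF cells. It was 29.5-fold lower (95% counting interval 15.3 to 65.1, edgeR adjusted p = 1.5e-09), with a mean below 100 normalized counts. Slc22a18, a transporter gene beside it that is maternal as well (chr7:143473736-143499334), had 23 and 20 reads in wt and none in Top2β-null MEF cells, at least 14.0-fold lower (edgeR adjusted p = 1.3e-05), or at least 7.14- or 6.83-fold against 1 Top2β-null library alone. Neither was called, because of the limit on the mean. Kcnq1ot1, the paternally expressed noncoding RNA that silences these neighbours in cis (chr7:143203458-143296549), had 19145 and 19303 normalized counts in wt and 27901 and 24900.3 in Top2β-null MEF cells. This is a log2 fold change of 0.46 (SE 0.0387, edgeR adjusted p = 2.8e-08). Phlda2 and Slc22a18 passed the filter on low counts through the wt libraries alone, so their direction was set by the filter.

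Kcnq1, the potassium channel gene through which Kcnq1ot1 runs antisense, was at 51.5 and 57.0 normalized counts in wt and at 49.7 and 61.4 in Top2β-null MEF cells, and the genotypes overlapped. Tssc4, with 2764.5 and 2746 against 2612 and 2563, did not pass the test (log2 fold change -0.091, SE 0.0398, edgeR adjusted p = 0.0575). Cdkn1c, the cell cycle inhibitor p57, had 1 and 0 reads in wt and 2 and 2 in Top2β-null MEF cells. Ascl2, a transcription factor gene of the trophoblast, had none in wt and 1 and 1. These last 2 were not tested, and in both genotypes they stood at single reads.

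Peg10-Sgce on chromosome 6 was the only locus with calls in both directions among its members. Peg10, a gene derived from a retrotransposon that the placenta needs (chr6:4747306-4760517), is expressed from the paternal copy and was among the most abundant members in wt. Its normalized counts were 47129.7 and 47524 in wt and 16039.5 and 16983 in Top2β-null MEF cells, 2.87-fold lower (log2 fold change -1.52, SE 0.0293, edgeR adjusted p = 2.0e-16). Sgce, the epsilon-sarcoglycan gene that starts head to head with it and shares its control region, had 3127 and 3104 in wt and 3476 and 3249 in Top2β-null MEF cells (log2 fold change 0.11, SE 0.0409, edgeR adjusted p = 0.0279). The log2 ratio of Peg10 to Sgce per kb of exon was accordingly 4.60 ± 0.016 in wt against 2.97 ± 0.13 in Top2β-null MEF cells (mean ± SD, n = 2 each). Asb4 (chr6:5383386-5433022), a maternally expressed gene of the ankyrin and SOCS box family, had 13 and 12 reads in wt and 3260 and 3475 in Top2β-null MEF cells (ratio 276, 95% counting interval 187 to 427, edgeR adjusted p = 5.9e-19). The median of all tested genes on chromosome 6 was 0.36 on the log2 scale. Relative to it, Peg10 stood at -1.88 and Asb4 at 7.74, and Sgce turned from 0.11 to -0.25.

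Igf2r-Airn on chromosome 17 showed both partners lower. Igf2r, the maternally expressed receptor that clears IGF2 from the cell surface (chr17:12682406-12769664, minus strand), had 51954 and 52349.7 normalized counts in wt and 16447.5 and 16143 in Top2β-null MEF cells. It was 3.20-fold lower (log2 fold change -1.68, SE 0.0259, edgeR adjusted p = 1.2e-17). Airn, the paternally expressed noncoding RNA that starts inside Igf2r, runs antisense through its promoter and silences it (chr17:12741311-12860136, plus strand), had 1315 and 1284 in wt and 695 and 679 in Top2β-null MEF cells. Its log2 fold change was -0.92 (SE 0.0566, edgeR adjusted p = 5.0e-10). The log2 ratio of Igf2r to Airn per kb of exon fell from 3.96 ± 0.032 in wt to 3.20 ± 0.0039 in Top2β-null MEF cells (mean ± SD, n = 2 each), so that Igf2r was lowered more than Airn. No exon base is shared by the pair. Slc22a3, a transporter gene imprinted in the placenta, had 3 and 0 reads in wt and none in Top2β-null MEF cells. The median of all tested genes on chromosome 17 was -0.43, and relative to it Igf2r stood at -1.25 and Airn at -0.49. The Igf2r window, printed as that of a member that fell, holds 34 CpGs and no TGCCGC or GCGGCA.
Igf2r, chr17:12769657-12769956, minus strand: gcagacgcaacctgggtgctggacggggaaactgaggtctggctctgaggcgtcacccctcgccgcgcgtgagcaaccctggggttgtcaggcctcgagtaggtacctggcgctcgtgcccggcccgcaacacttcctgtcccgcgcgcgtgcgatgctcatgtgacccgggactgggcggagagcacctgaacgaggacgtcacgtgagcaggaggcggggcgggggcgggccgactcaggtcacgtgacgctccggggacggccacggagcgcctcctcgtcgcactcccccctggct

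**Figure D3:**
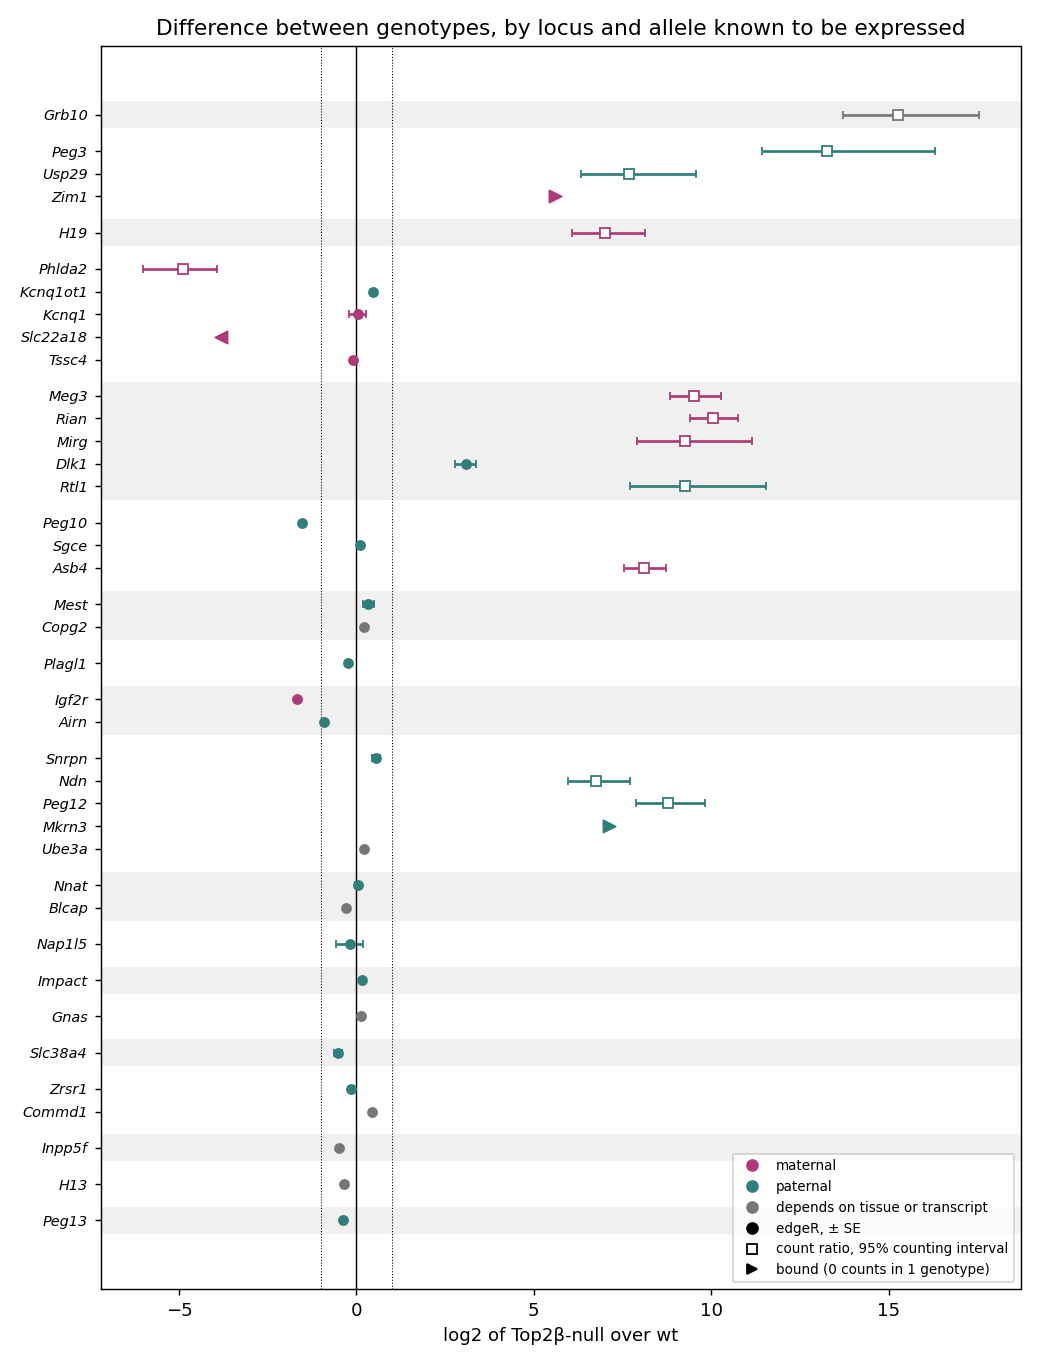
Log2 of the Top2β-null over the wt level for the 39 tested genes by locus, coloured by the parental copy known to be expressed. Circles are edgeR estimates with SE, open squares count ratios with 95% counting intervals for genes with at most 30 reads in 1 genotype, triangles bounds for genes with no read in 1 genotype, and dotted lines mark -1 and 1. Grb10 lies farthest to the right and Phlda2 farthest to the left.

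The remaining tested members had log2 fold changes between -1 and 1. Mest, a paternally expressed hydrolase gene of mesoderm, had 129 and 119 normalized counts in wt and 144 and 169 in Top2β-null MEF cells (log2 fold change 0.34, SE 0.152, edgeR adjusted p = 0.0618). Copg2, a vesicle coat subunit gene antisense to it, rose by 0.22 on the log2 scale, from 2192 and 2319 to 2654 and 2596 (edgeR adjusted p = 3.8e-04). Both share 912 exon bases, and relative to the chromosome 6 median of 0.36 Copg2 stood at -0.14 and Mest at -0.019. The ratio of Mest to Copg2 per kb differed by 0.11 between genotypes, within the spread of its libraries. The Mest window is printed beside those of the called genes because it holds GCGGCA at 2 places in a gene that was not called.
Mest, chr6:30737800-30738099, plus strand: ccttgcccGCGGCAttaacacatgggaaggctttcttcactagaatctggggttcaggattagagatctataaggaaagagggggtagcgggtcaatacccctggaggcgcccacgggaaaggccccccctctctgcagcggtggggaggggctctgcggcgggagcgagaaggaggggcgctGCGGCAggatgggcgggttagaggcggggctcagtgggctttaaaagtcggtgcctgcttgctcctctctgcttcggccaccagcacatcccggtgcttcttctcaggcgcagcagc

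Plagl1, a zinc finger gene that controls a network of imprinted genes, had 2723 and 2935 normalized counts in wt and 2356 and 2413 in Top2β-null MEF cells (log2 fold change -0.25, edgeR adjusted p = 1.6e-04). Its chromosome had a median of -0.35, above which Plagl1 stood by 0.10. Nnat, a membrane protein gene inside an intron of Blcap, had 519 and 501 in wt and 571 and 487 in Top2β-null MEF cells, and the genotypes overlapped. Blcap fell by 0.28 on the log2 scale (3209.6 and 3206 against 2573 and 2699, edgeR adjusted p = 1.2e-05). Zrsr1, a splicing factor retrogene inside Commd1, had 793 and 852 in wt and 717 and 776 in Top2β-null MEF cells (edgeR adjusted p = 0.0761). Commd1, a gene of copper handling, rose by 0.44, from 1306 and 1332 to 1804 and 1779.8 (edgeR adjusted p = 6.1e-07). The log2 ratio of Zrsr1 to Commd1 per kb differed by -0.58 and that of Nnat to Blcap by 0.33. Zrsr1 and Commd1 share 412 exon bases on opposite strands, whose reads cannot be told apart.

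**Figure D4:**
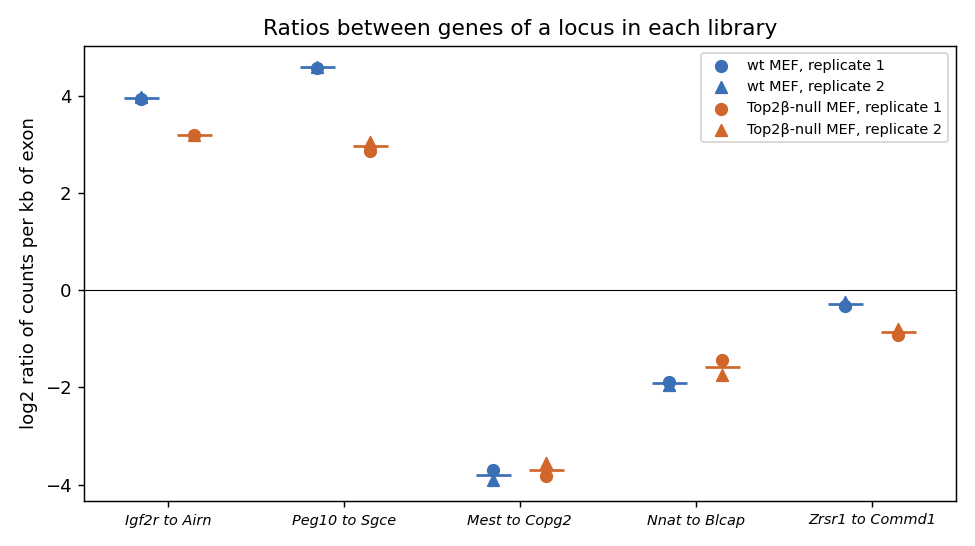
Log2 ratio of counts per kb of exon between genes of 5 loci in each library, with a bar at the mean of each genotype. Igf2r to Airn and Peg10 to Sgce are lower in both Top2β-null libraries than in both wt libraries, and Mest to Copg2 overlaps between genotypes.

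The members that stand alone were mostly expressed in both genotypes. Impact, a paternally expressed regulator of the GCN2 kinase, had 12382 and 12765 normalized counts in wt and 14030.3 and 14081 in Top2β-null MEF cells, a log2 fold change of 0.16. Gnas, whose main product is the stimulatory G protein alpha subunit, had 28273 and 28602 against 30675 and 31525 (0.13). Both passed the adjusted p of edgeR (3.9e-05 and 3.4e-04). H13, the signal peptide peptidase gene, went from 11845 and 11793 to 9216 and 9255 (log2 fold change -0.36), and Inpp5f, a phosphoinositide phosphatase gene, from 3334 and 3321 to 2378 and 2360.2 (-0.49). Peg13, a noncoding RNA inside an intron of Trappc9, had 1019 and 1092 in wt and 823 and 797 in Top2β-null MEF cells (-0.38). Slc38a4, an amino acid transporter gene, had 371 and 301 in wt and 237 and 237 in Top2β-null MEF cells (-0.50). For these 4 the adjusted p values of edgeR were 2.2e-09, 1.2e-08, 3.4e-05 and 0.0010. Peg13 and Slc38a4 lie on chromosome 15, whose tested genes had a median of -0.55, and relative to it they stood at 0.17 and 0.048. Nap1l5, a retrogene inside Herc3, had 28.3 and 27.0 in wt and 14.5 and 33.7 normalized counts in Top2β-null MEF cells and overlapped between genotypes. Zdbf2, with 3 and 1 reads in wt and 2 and 1 in Top2β-null MEF cells, was not tested.

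Grouped by the parental copy known to be expressed, 5 of 11 tested maternal genes were called higher and 1 lower, 6 of 20 paternal genes higher and 1 lower, and 1 of 8 genes whose copy depends on tissue or transcript, beside 5.52% higher and 5.25% lower of all genes tested. As 10 of the 12 genes called higher passed the filter through the Top2β-null libraries alone, these counts and medians are a description and support nothing further. The median log2 fold change was 6.97 for maternal genes (5.59 with genes at 0 in 1 genotype set to their bound) and 0.25 for paternal genes, against -0.0058 for all genes tested. The maternal genes called higher were H19, Meg3, Rian, Mirg and Asb4, of which 3 lie in 1 locus. The difference between the parental groups was not tested, since members of a locus are not independent.

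Per kilobase of exon, the most abundant members in wt were Peg10 at 7099 normalized counts and Igf2r at 5603, followed by Gnas at 2542 and Impact at 2451.5. In Top2β-null MEF cells Grb10 came first at 6402, ahead of Gnas at 2780.2 and Impact at 2740.4, whose libraries overlapped, then Peg10 at 2477 and Igf2r at 1751. Peg10 moved from percentile 97.7 to 93.1 of all genes with a count and Igf2r from 97.0 to 90.0.

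Other imprinted genes of the same clusters were examined as a list of 33, of which 21 were tested, 4 called higher and 1 lower (5.52% and 5.25% of all genes tested), with a median log2 fold change of 0.10. Of the 5 called genes, 3 lie at Peg10-Sgce. Casd1, a sialic acid acetylating enzyme gene, had 1113 and 1043 normalized counts in wt and 4658 and 4575 in Top2β-null MEF cells (log2 fold change 2.10, SE 0.0445, edgeR adjusted p = 6.3e-16). Ppp1r9a, which encodes the actin-binding protein neurabin, had 6 and 7 reads in wt and 485 and 431 in Top2β-null MEF cells (ratio 72.3, 95% counting interval 42.1 to 136). Ppp1r9a passed the filter on low counts through the Top2β-null libraries alone, so its direction was set by the filter. Pon2, a paraoxonase gene, fell from 4776 and 4742 to 2242 and 2298 (log2 fold change -1.07, edgeR adjusted p = 2.5e-13), and was not called with total-count scaling, where it stood at -0.998. Begain, a gene beyond Dlk1, had 64.6 and 60.9 in wt and 201 and 191 in Top2β-null MEF cells (log2 fold change 1.64, edgeR adjusted p = 1.6e-07). Tnfrsf22, a decoy receptor gene at the end of the Kcnq1ot1 locus, rose from 1333 and 1445 to 3488 and 3669 (log2 fold change 1.36, edgeR adjusted p = 4.3e-13). By the adjusted p alone, 9 of the 21 were higher and 5 lower, against 32.8% and 33.7% of all genes tested.

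Genes that keep or erase imprints were examined as a list of 21, of which 19 were tested. By the adjusted p, 13 were higher and 3 lower, against 32.8% and 33.7% of all genes tested, with a median log2 fold change of 0.25. Of the 19, 1, Arid4b, was called, against 5.52% called higher and 5.25% lower of all genes. Arid4b, a chromatin protein gene linked to the Snrpn control region, had 3669.9 and 3724 normalized counts in wt and 8624 and 8302 in Top2β-null MEF cells (log2 fold change 1.19, SE 0.0301, edgeR adjusted p = 5.5e-15). Dnmt3a, a de novo DNA methyltransferase, rose by 0.98 (edgeR adjusted p = 1.3e-11), just under the limit. Dnmt1, which copies methylation after replication, had a log2 fold change of -0.035 (edgeR adjusted p = 0.241), and Uhrf1, which recruits it, fell by 0.59 (adjusted p = 4.3e-12). Zfp57, which binds methylated control regions, had 3099 and 2922 in wt and 3182 and 3135 in Top2β-null MEF cells (edgeR adjusted p = 0.149). Tet1, which oxidizes methylated cytosine, had 19.2 and 24.1 in wt and 137 and 119.8 in Top2β-null MEF cells (log2 fold change 2.55, edgeR adjusted p = 8.3e-08) at a mean below 100. Dnmt3l, a cofactor of de novo methylation in germ cells, had 0 and 1 reads in wt and 13 and 15 in Top2β-null MEF cells (ratio 28.7, 95% counting interval 4.75 to 1174). It is 1 of the 13 counted as higher, and passed the filter through the Top2β-null libraries alone, so that its direction was set by the filter. DNA methylation was not measured. In bulk RNA of this kind, fewer cells that express a gene and less RNA per cell cannot be told apart. Among markers of other cells, the neuronal gene Tubb3 rose from 2022 and 2007 to 4322 and 4598 normalized counts, while Rbfox3 stayed below 2 and Snap25 below 9 in every library. Des, a muscle gene, went from 88.8 and 139 to 2.07 and 0.990. Their part in the differences of the imprinted genes was not tested.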

How the data were processed

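Total RNA was sequenced from 2 wt and 2 Top2β-null MEF libraries. The authors deposited raw counts, 1 whole number per library for each gene and repeat family. They trimmed paired reads with Trim Galore! 0.4.0, aligned them to mm10 with STAR 2.5.2, keeping reads with many alignments, and counted with TEtranscripts 1.5.1, whose strand and multiple-read settings are not given in the sources used here. Counts of genes with near-identical copies, such as the retrogene Zrsr1, may therefore be shared. Of 54842 gene identifiers, 54409 matched GENCODE release 21 of mouse (GRCm38), and the table also holds 1562 repeat families. Groups came from the sample labels.

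A feature entered the fit when 2 or more libraries had 10 or more of its counts. edgeR 4.0.16 (R 4.3.3) gave TMM factors over genes and repeats, a quasi-likelihood test of genotype and Benjamini-Hochberg adjusted p-values across the whole fit, and SE is the absolute log2 fold change over the square root of F. The calling limits are those of the study's methods. At 2 against 2 libraries, the smallest p of an exact permutation test is 0.33. For genes with at most 30 reads in a genotype, ratios carry an exact 95% interval, and genes at 0 a bound from 3 counts over the group. The steps were tested on simulated data. The 2 libraries of a genotype were not repeats of 1 library, as their counts differed beyond sampling (chi-square over its degrees of freedom was 3.65 for wt, 5.07 for Top2β-null). The members, loci, 2 further lists, markers and tests were chosen with earlier results of these data known. All 46 members are named, and of the further lists every called gene. Alternatives were DESeq2 1.42.0, TMM factors from genes only, total-count scaling, no filter or a filter at 100 counts in every library, the replicate number as a block, the adjusted p alone, chromosome medians, and leaving out each library.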

Additional observations from a re-analysis of the deposited data

How the results depend on the processing

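The 12 members called higher and the 2 called lower kept these counts with DESeq2, with total-count scaling, with gene-only TMM factors, without a filter and relative to chromosome medians. Without a library, 11 to 12 were called higher and 2 lower. Mkrn3 lost its call without either Top2β-null library (11 called), since its mean then fell below 100, while its log2 fold change was 10.78 and 10.61 there. With at least 100 counts in every library, 0 were called higher, as all 12 have fewer reads than that in wt and left the fit, and the median log2 fold change over the 21 members left was -0.084. By the adjusted p alone, 22 were higher and 11 lower. The median log2 fold change of the members was 0.28 with total-count scaling, which moved the median of all genes to 0.064, and 0.18 to 0.22 without a library. Of the other imprinted genes of the clusters, 3 were called with at least 100 counts in every library (Begain and Ppp1r9a left the fit), 14 by the adjusted p alone, 4 with total-count scaling (Pon2 at -0.998) and 5 whichever library was left out. Of the imprint regulators, 2 were called with TMM factors from genes only, with total-count scaling and without wt replicate 1, Dnmt3a being the second each time, 1 to 2 without a library, and 16 by the adjusted p alone.

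The replicate number did not pair the libraries (correlation of same-numbered deviations 0.0197 over 17952 features). With it as a block, 12 members were called higher, 2 lower, 5 other imprinted genes and 1 regulator were called, and the median log2 fold change was 0.21.

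Relative to the median of their chromosome, 7 members turned sign: Kcnq1 to -0.041, Sgce to -0.25, Mest to -0.019, Copg2 to -0.14, Plagl1 to 0.10, Slc38a4 to 0.048 and Peg13 to 0.17. Without a library, Kcnq1 ran from -0.12 to 0.20, Nnat from -0.044 to 0.17 and Nap1l5 from -0.92 to 0.30, and turned sign without wt replicate 1 or Top2β-null replicate 2 (Kcnq1, -0.034 and -0.12) or Top2β-null replicate 1 (Nnat and Nap1l5). The ratio of Mest to Copg2 ran from -0.019 (without Top2β-null replicate 2) to 0.25, Igf2r to Airn from -0.78 to -0.74, Peg10 to Sgce from -1.72 to -1.54, Nnat to Blcap from 0.18 to 0.48 and Zrsr1 to Commd1 from -0.65 to -0.51. The cause was not tested. Of 255 values for single members in fits of all libraries, 248 kept direction and call. Counts limit precision for genes near 0 in a genotype, where ratios span wide intervals.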

Other observations

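Genes within 500 kb of the loci that are on no list numbered 359 tested, of which 17 were called higher and 18 lower (4.74% and 5.01%). Over all genes tested these shares were 5.52% and 5.25%, and the genes below are given as values alone. Near Grb10 and the Peg3 locus the means of the neighbours within 100 kb were too low for a call. Beside Grb10, the snRNA gene Gm24036 had no read in wt and 36 and 61 in Top2β-null MEF cells, and the pseudogene Gm12001 had 1 and 4 against 77 and 67. Within the span of Usp29, Gm44862 and Gm44863 had no read in wt and 21 and 16, and 38 and 29, in Top2β-null MEF cells, while Pafah1b1-ps2 beyond it had 12 and 12 against 14 and 3. Of these 5, the first 4 entered the fit through the Top2β-null libraries alone. Of the genes called within 100 kb, those inside Dlk1-Dio3 are named above and the others follow. Beside H19 and Igf2, Lsp1, an actin-binding protein gene of leukocytes that fibroblasts can express, had 1179 and 1159 normalized counts in wt and 166 and 168 in Top2β-null MEF cells (log2 fold change -2.81, edgeR adjusted p = 1.1e-14), opposite in direction to H19. Beside Asb4, Pdk4, a kinase gene that restrains glucose oxidation, had 137 and 115 in wt and 616 and 609 in Top2β-null MEF cells (log2 fold change 2.28, edgeR adjusted p = 6.9e-12). Beyond the Snrpn end and next to Ndn, the noncoding gene Gm9801 rose from 89.8 and 96.6 to 654 and 609 (log2 fold change 2.76, edgeR adjusted p = 8.8e-13). Near H13, Id1, an inhibitor of bHLH transcription factors, rose by 1.33 on the log2 scale, and near Nnat the tyrosine kinase gene Src fell by 1.28. Herc3, the host of Nap1l5, fell from 1267 and 1317 to 641 and 594 (log2 fold change -1.07, edgeR adjusted p = 1.9e-10), where Nap1l5 itself did not pass the test. The other 4 were Gm44432 (2.10), Gm44424 (-1.03), Gm7162 (-1.08) and 4732491K20Rik (-1.20), with the log2 fold change of each in parentheses.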
